A study of Mus musculus with 2 samples.

Results

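The mouse genes described here have several annotated alternative promoters with accessible DNA at or near them in the cerebellum. A gene was included when its annotated protein-coding transcript starts, merged where they lay within 2000 bp of each other, formed 3 or more start clusters, and at least 3 of these had a DNase I peak within 1000 bp in both animals. Such a cluster is called an open start below, whether the peak covers the start or lies beside it, and the first start of a gene means its first open one. The rule did not ask for separate peaks, so the same peak can count for neighbouring start clusters. The choice gave 181 of 21951 protein-coding genes of the GENCODE M21 annotation on mm10. Only 1664 genes had 3 or more start clusters at all, and the 181 were 10.9% of those. They held 817 start clusters, of which 596 were open in both animals, 33 had a peak in 1 animal and 188 had none in either. Over all protein-coding genes, 15269 of 30948 start clusters, or 49.3%, were open in both animals.

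Many genes carry more than one promoter, and each starts transcripts with its own first exon. Where the alternative first exon holds the start codon, the promoters make proteins with different N-terminal ends, and otherwise they change only the leader of the messenger RNA. Well-known examples are the cAMP phosphodiesterases of the PDE4 family, whose isoforms differ in their N-terminal targeting regions. Promoters in vertebrates are commonly divided into those within stretches rich in the dinucleotide CpG and those poor in it.

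DNase-seq maps the sites that the enzyme DNase I can reach and cut in nuclei, and dense clusters of cuts mark accessible regulatory DNA. The samples were cerebella of 2 male B6CASTF1/J mice, the first-generation cross of C57BL/6J with CAST, aged 36 days, with 1 library from each animal. They formed 1 group with no treatment, and the labels describe separate males, numbered as biological replicates 1 and 2, under a donor entry that they share. The spread between them holds animal and library differences together. No comparison between conditions and no test over animals was possible, and every comparison below sets starts of the same genes, or sets of genes, side by side.

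The height of an open start is the value of the highest peak within 1000 bp of it, in the authors' units, whose scale is not stated and was treated as separate in each animal. The lists held 140127 peaks in replicate 1 and 114404 in replicate 2. Cerebellar identity was checked with marker genes: all 6 granule cell markers had a promoter peak in both animals, among them Neurod1 at 20.6 and 12.6 and Cbln3 at 27.9 and 17.1, while the 3 microglia markers, Alb of liver and Acta1 of muscle had none. Other cell types gave mixed values: of the Purkinje genes Itpr1 had 16.0 and 12.5, Calb1 1.26 and 1.02 and Pcp2 no peak. The oligodendrocyte gene Mbp had 5.39 and 2.77, all 3 astrocyte and Bergmann glia genes had peaks below 1 in both animals, and of the choroid plexus genes Ttr had none and Kl had 0.293 in replicate 1 alone. The tissue is a mixture, so several open starts of 1 gene may lie in the same cells or in different cells, which cannot be told apart here. Fewer cells of a type and less accessible DNA per cell cannot be told apart either.

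The genes were chosen by the presence of peaks in these same lists, so their heights are given as a description, with no test. Of the 181 genes, 143 had 3 open starts, 25 had 4, 11 had 5 and 2 had 6. The first annotated start cluster was open in 168 genes, and all start clusters were open in 72. Members were long genes, with a median of 146 kb, against 79.5 kb for the other 1483 genes with 3 or more start clusters and 17.4 kb for all protein-coding genes. Neighbouring open starts lay a median of 32.3 kb apart, and the first and last open start a median of 84.7 kb apart, with a range of 4.57 to 1005 kb. The genes were spread over all autosomes, with 18 on chromosome 2 and 16 on chromosome 4, and 1 was on the X chromosome.

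The extremes of the group show how different the accessible DNA at 2 promoters of 1 gene can be. The first 4 sequences are shown because their genes had a tall first start and a low downstream start. Each is the 150 bases around the middle of the replicate 1 peak, read 5′ to 3′ on the strand of the gene from GRCm38.p6 (mm10), with CpG in capitals, and none overlaps an annotated exon. The Hip1 windows are chr5:135545176-135545325 and chr5:135466136-135466285 on the minus strand, and the Dop1b windows are chr16:93711706-93711855 and chr16:93729856-93730005 on the plus strand.
Hip1 first open start: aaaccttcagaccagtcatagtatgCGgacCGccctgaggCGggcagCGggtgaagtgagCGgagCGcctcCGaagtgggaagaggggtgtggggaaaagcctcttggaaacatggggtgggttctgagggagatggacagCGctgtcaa
Hip1 last open start: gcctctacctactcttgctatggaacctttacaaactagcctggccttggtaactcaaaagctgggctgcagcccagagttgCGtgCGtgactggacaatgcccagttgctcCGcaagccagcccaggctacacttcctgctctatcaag
Dop1b first open start: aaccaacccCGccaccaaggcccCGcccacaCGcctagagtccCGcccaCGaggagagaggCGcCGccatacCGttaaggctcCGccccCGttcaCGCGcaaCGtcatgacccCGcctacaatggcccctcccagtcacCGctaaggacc
Dop1b middle open start: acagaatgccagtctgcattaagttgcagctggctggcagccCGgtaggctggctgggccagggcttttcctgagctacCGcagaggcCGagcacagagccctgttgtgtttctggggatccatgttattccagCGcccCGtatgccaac
In Hip1 the first window held 8 CpG and the last 3, and in Dop1b the first held 15 and the middle 5.

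The next 3 sequences come from downstream starts that were taller than the first start of their gene. That of Elavl2 (chr4:91376516-91376665, minus strand) was the tallest of its gene. Those of Plch2 (chr4:155054776-155054925, minus strand) and Rbfox3 (chr11:118508006-118508155, minus strand) are shown because they had hardly any CpG, at heights of 5.00 and 3.54 in Plch2 and 9.40 and 4.87 in Rbfox3.
Elavl2 middle open start: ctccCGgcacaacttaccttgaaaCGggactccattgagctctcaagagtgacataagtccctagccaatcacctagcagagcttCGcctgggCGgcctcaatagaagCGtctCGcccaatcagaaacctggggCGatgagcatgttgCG
Plch2 second open start: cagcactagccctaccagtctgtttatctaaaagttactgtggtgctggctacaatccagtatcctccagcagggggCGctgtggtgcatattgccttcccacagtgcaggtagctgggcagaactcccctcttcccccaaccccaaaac
Rbfox3 last open start: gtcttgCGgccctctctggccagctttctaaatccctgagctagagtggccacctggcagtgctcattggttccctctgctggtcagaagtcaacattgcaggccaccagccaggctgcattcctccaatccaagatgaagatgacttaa
The Elavl2 window held 8 CpG, while those of Plch2 and Rbfox3 held 1 each. The CpG of the Plch2 window lies in a match to AGGGGGCGC, the CTCF core among the motifs counted below. Binding there was not tested.

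The first open start was on the whole taller than the downstream ones. Among the 3 or more open starts of each gene, it was the tallest in about as many genes as it was not. First open starts had a median height of 7.07 in replicate 1 and 4.85 in replicate 2, against 2.74 and 1.98 for downstream open starts. Those medians stood at percentiles 90.5 and 88.2 of all peaks of the animal for first starts and at 79.0 and 72.9 for downstream starts. Within the downstream starts there was hardly any difference by position, since the middle ones had medians of 2.71 and 2.00 and the last ones 2.74 and 1.98. The boxes of first and downstream starts overlap widely in the plot of heights by position. Both sets stood below the 9229 open genes with a single start cluster, whose medians were 9.83 and 6.72.

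**Figure D1:**
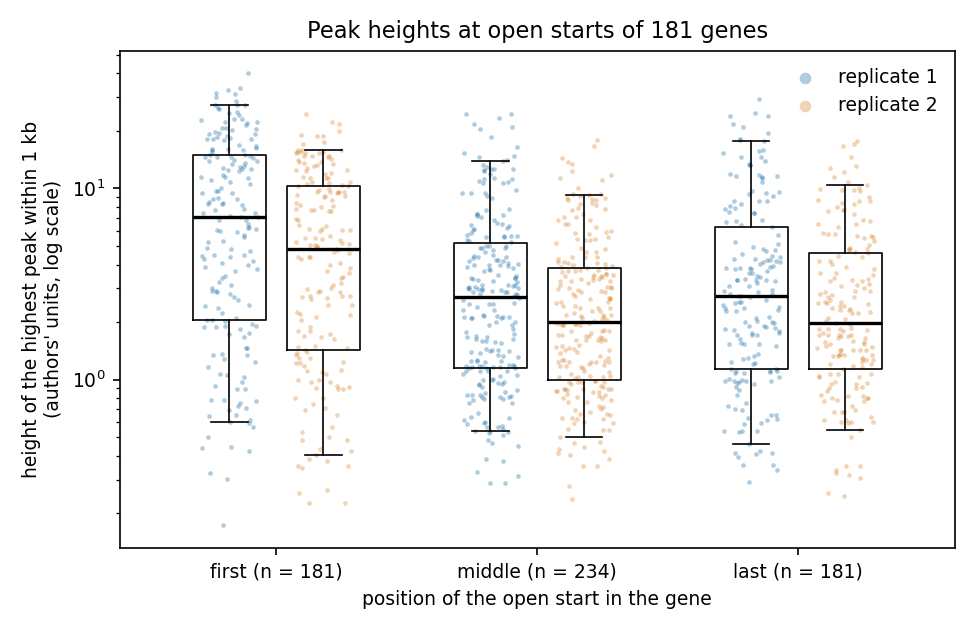
Height of the highest peak within 1000 bp (authors' units, log scale) at the first, middle and last open starts of the 181 genes, with 1 point per start and animal. Boxes give the quartiles and median and whiskers the 5th and 95th percentiles; the medians of the first starts, 7.07 and 4.85, lie above those of the middle and last starts, and the spreads overlap.

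The first open start had the tallest peak in 98 genes in replicate 1 and 92 genes in replicate 2, or 52.5% ± 2.3 of the 181 (SD, n = 2). It was tallest in both animals in 87 genes, which is 48.1%. Among all 1290 genes with 2 or more open starts that share was 61.6%, and among the 1109 with exactly 2 open starts 63.8%, where a first start has a single competitor. With 3 open starts the first was tallest in 81 and 75 of 143 genes, with 4 in 12 and 12 of 25, and with 5 or 6 in 5 and 5 of 13. A middle start was tallest in both animals in 42 genes and the last start in 32.

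Downstream heights were averaged on the log2 scale, which gives their geometric mean. The ratio of the first height to this geometric mean was taken within each gene and animal. Its median on the log2 scale was 1.13 in replicate 1 and 0.92 in replicate 2, a mean of 1.03 ± 0.15 (SD, n = 2), which is 2.04-fold. In the genes with exactly 2 open starts it averaged 1.00 ± 0.12 (SD, n = 2). The ratio was above 0 in both animals in 121 genes and below 0 in both in 55. It exceeded 1, a doubling, in 93 and 85 genes, and lay below -1 in 35 and 37. Against the highest downstream start in place of the mean, the median was 0.11.

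The order of the starts was much the same in both animals. The same start was tallest in both in 159 of 181 genes, or 87.8%, and in 1048 of the 1109 genes with 2 open starts, or 94.5%. The log2 ratio differed between the animals by a median of 0.33, and in 166 genes the mean ratio was larger than that gene's own difference between the animals. Across the 181 genes, which share the same libraries and are not replicates, Pearson's r of the ratio between the animals was 0.97. The tallest open start exceeded the lowest of its gene by a median of 7.69-fold in replicate 1 and 6.02-fold in replicate 2. At 555 of the 596 open starts the highest peaks of the animals overlapped.

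**Figure D2:**
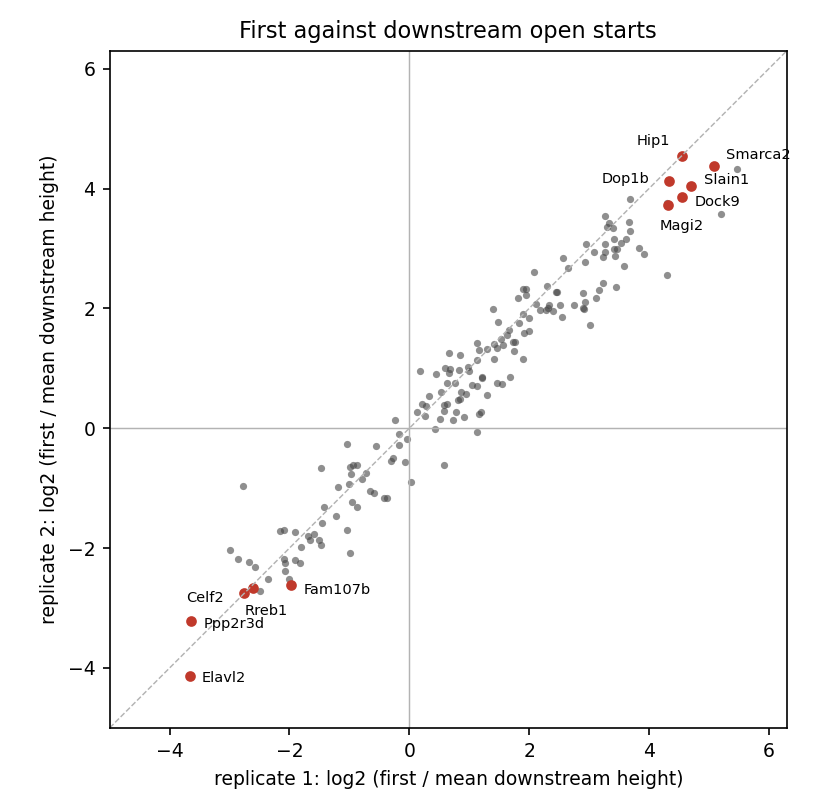
Log2 ratio of the first open start's height to the geometric mean of the downstream heights, with 1 point per gene. Replicate 1 is on the x axis and replicate 2 on the y axis, and the dashed line marks equal values. The genes lie along the line, among them Hip1 at 4.55 in both animals and Elavl2 at -3.67 and -4.13; the red, named genes are among those with the highest and lowest ratios of the first to the tallest downstream start.

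The genes with the clearest single leading promoter at their 5′ end were Hip1, Slain1, Smarca2, Dock9, Dop1b and Magi2. Hip1 (chr5:135406531-135545120), an adaptor of clathrin-mediated endocytosis, had a first start of 21.9 in replicate 1 and 22.2 in replicate 2, against 1.15 and 1.04 at the middle start and 0.759 and 0.869 at the last. Smarca2 (chr19:26605050-26778322), the BRM ATPase of SWI/SNF chromatin remodelling complexes, had 27.1 and 15.8 at the first start, against 0.564 and 0.553 at the middle and 1.14 and 1.04 at the last. Slain1, a microtubule plus-end protein, had 21.5 and 12.1 at the first start, against 0.808 and 0.780 at the middle and 0.835 and 0.691 at the last. In each of the 3 genes no downstream value came near the first in either animal. Dop1b, a homologue of a yeast endosomal trafficking protein, had 31.0 and 17.6 at the first start, against 2.14 and 1.49 at the middle and 1.12 and 0.681 at the last. Dock9, an exchange factor for Cdc42, had 14.8 and 11.4, against 0.640 and 0.810 and, at the last start, 0.618 and 0.770. Magi2, a scaffold protein of the synapse, had 8.83 and 6.05 at the first start, against 0.553 and 0.593 at a start 681 kb away and 0.358 and 0.356 at the last. In Slain1 both downstream starts, in Smarca2 the middle and in Dop1b the last belonged only to transcripts annotated as incomplete at the 5′ end.

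At the other end of the range a low first start preceded a tall downstream one in Ppp2r3d, Elavl2, Celf2, Rreb1 and Fam107b, among others. Elavl2 (chr4:91250763-91400785), which encodes a neuronal RNA-binding protein, had 0.602 and 0.346 at the first start, against 15.3 and 14.4 at a start 23.5 kb downstream and 3.82 and 2.53 at the last. Celf2 (chr2:6539694-7509563), a splicing regulator, had 0.325 and 0.227 at the first start, against 1.11 and 0.681 at the second, 7.33 and 4.67 at the third, 524 kb downstream, and 1.30 and 1.14 at the last. The tall start was a middle one in both genes, and the open starts on both sides of it were lower in both animals. Rreb1, a zinc finger transcription factor, had 0.569 and 0.356 at the first start, against 0.813 and 0.701 at the second, 10.7 and 7.87 at the next and 4.74 and 2.08 at the last. Fam107b had 0.710 and 0.435 at the first start, against 14.6 and 8.72 at the middle and 0.537 and 0.820 at the last. Ppp2r3d, a regulatory subunit gene of protein phosphatase 2A, had 0.423 and 0.375 at the first start, against 1.15 and 0.721 at the middle and 23.9 and 17.1 at the last. The first Ppp2r3d start belonged only to transcripts annotated as incomplete at the 5′ end, so its rank as the first promoter is uncertain.

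The genes with the most open starts showed a range of shapes. Pde4d (chr13:108449948-109953461), a cAMP phosphodiesterase gene, had 6 open starts of 11 start clusters. Its first start stood at 5.22 and 5.07, against 1.12 and 1.05, 0.797 and 0.918, 0.829 and 0.879, 2.10 and 1.30, and 0.883 and 0.800 at the starts that followed over 808 kb. The first open Pde4d start, which is not the first annotated one, was thus the tallest and the fifth open one the next in both animals. Mtus1 (chr8:40990914-41133726), a microtubule-associated gene, had all of its 6 start clusters open, with 1.89 and 1.30 at the first, against 4.97 and 2.93, 1.26 and 1.42, 1.07 and 1.19, 2.98 and 3.56, and 1.54 and 1.50 further down. The tallest was the second in replicate 1 and the fifth in replicate 2. Nedd4l, a ubiquitin ligase gene known for acting on ion channels, had 12.7 and 8.03 at the first start, against 0.992 and 0.968, 1.59 and 1.24, 0.759 and 0.859, and 0.406 and 1.24. Trak1, an adaptor that links mitochondria to motor proteins, had 3.81 and 2.73 at the first start, against 2.48 and 2.36, 10.7 and 7.67, 5.63 and 3.65, and 2.32 and 1.79. Plch2 (chr4:154983115-155056784), a phospholipase C gene, had 2.69 and 1.07 at the first start, against 5.00 and 3.54, 1.93 and 1.10, 11.1 and 6.87, and 8.57 and 5.47. The third start in Trak1 and the fourth in Plch2 were tallest in both animals.

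**Figure D3:**
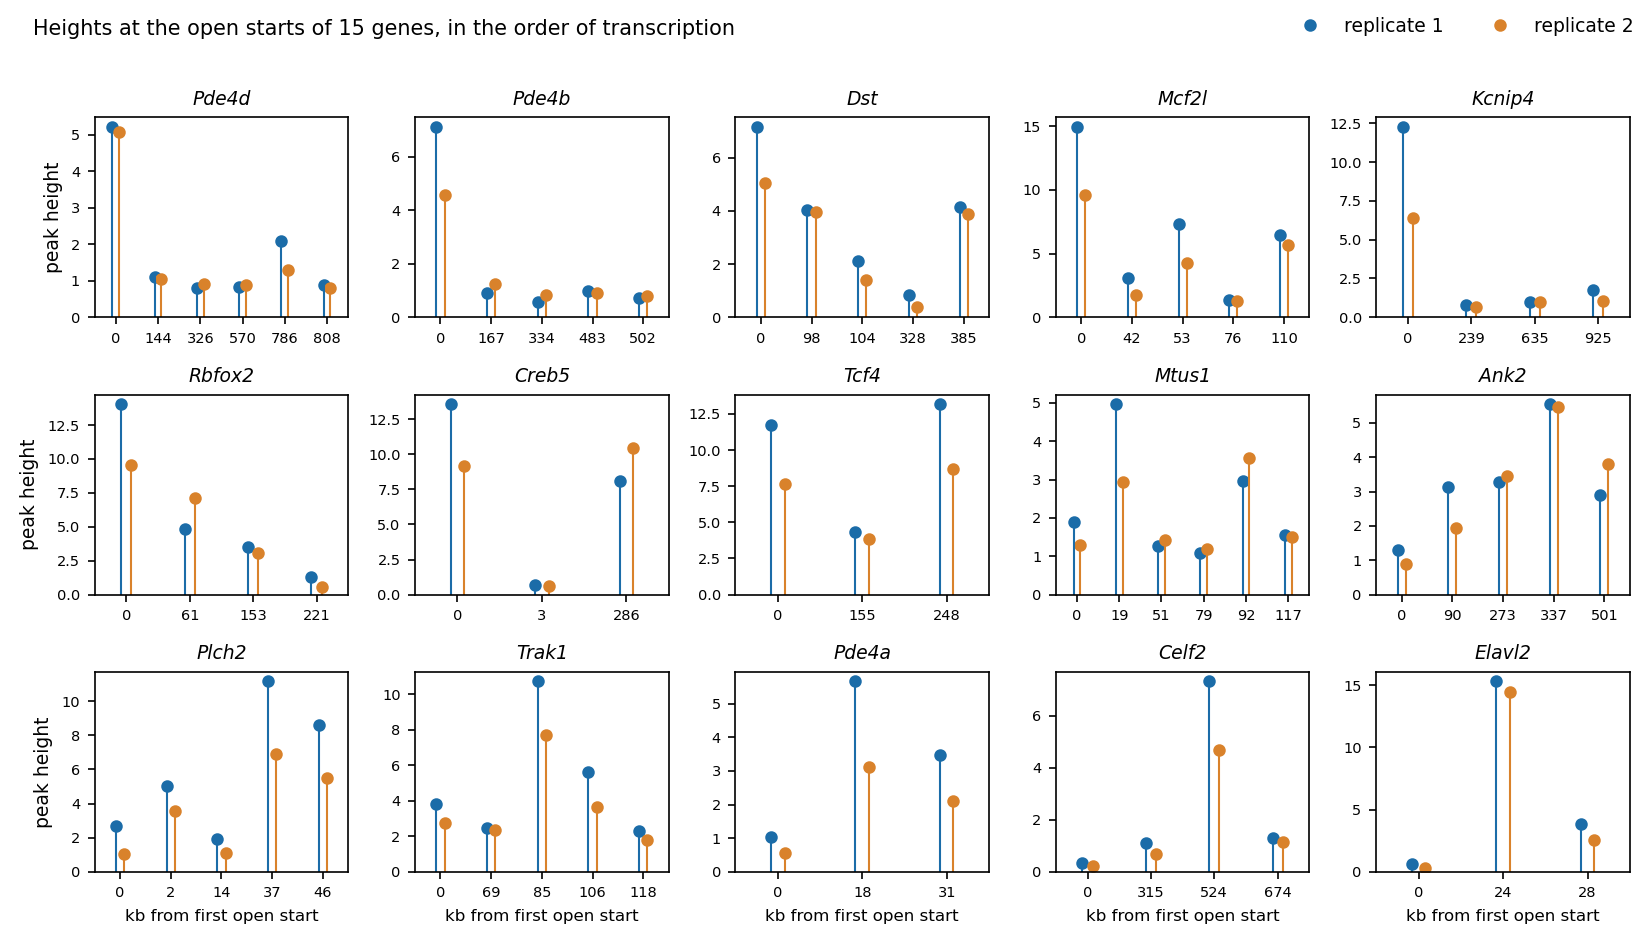
Peak heights (authors' units, linear, each panel with its own axis from 0) at the open starts of 15 genes, in the order of transcription with the distance from the first open start in kb, in replicate 1 (blue) and replicate 2 (orange). The first start leads in Pde4d, Pde4b and Kcnip4 and a middle start in Pde4a, Celf2 and Elavl2.

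The cAMP and calcium signalling list gave 5 of the 24 listed genes with 3 or more start clusters, or 20.8%. Over all 8 lists of genes of the nervous system and of general cell functions, 46 of 171 such genes were members, or 26.9%, against the 10.9% of all 1664 genes with 3 or more start clusters, and as the lists were drawn up with earlier results of these data known this is a description. All 3 genes of the PDE4 family with 3 or more start clusters were members. Pde4b (chr4:102087543-102607259) had 7.11 and 4.58 at the first start, against 0.916 and 1.23, 0.585 and 0.820, 0.992 and 0.899, and 0.732 and 0.800 at starts 167, 334, 483 and 502 kb downstream. In Pde4a (chr9:21165714-21213248) the first start was the lowest, with 1.04 and 0.563, against 5.66 and 3.12 at the middle and 3.47 and 2.09 at the last. The order of first and downstream starts was therefore opposite in Pde4a and in both Pde4b and Pde4d, in each animal. Gnas, the imprinted gene of the stimulatory G protein alpha subunit, had 0.732 and 0.504 at the first start, against 3.01 and 2.42 at the middle and 4.72 and 3.41 at the last. Atp2b2, a plasma membrane calcium pump, had 2.92 and 3.71 at the first start, against 1.63 and 1.48 at the middle and 4.10 and 2.49 at the last, so the tallest start differed between the animals.

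Of the 13 ion channel and receptor genes with 3 or more start clusters, Kcnip4 was the single member. That is 7.69%, below the 10.9% of all 1664 genes with 3 or more start clusters. Kcnip4 (chr5:48389502-49524907), an auxiliary subunit of Kv4 potassium channels, had 12.3 and 6.41 at the first start, against 0.813 and 0.632, 1.01 and 0.978, and 1.79 and 1.07 at starts 239, 635 and 925 kb downstream. The synaptic adhesion and scaffold list gave 3 of 27, or 11.1%, close to the 10.9% over all such genes. Nrxn2, a presynaptic adhesion gene, had 20.3 and 12.4 at the first start, against 1.05 and 1.95 at the middle and 8.59 and 4.59 at the last.

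Of the 24 transcription factor genes with 3 or more start clusters, 9 were members, or 37.5% against 10.9% over all such genes. Nfia, a nuclear factor I gene, had 22.3 and 14.3 at the first start, against 2.31 and 1.94 at the middle and 9.15 and 6.77 at the last, where the transcripts are incomplete at the 5′ end. Tcf4, an E protein of the basic helix-loop-helix family, had 11.7 and 7.64 at the first start, against 4.34 and 3.82 at the middle and 13.2 and 8.69 at the last, so the last slightly exceeded the first in both animals. Creb5 (chr6:53287270-53700376), a factor related to CREB, had 13.6 and 9.13 at the first start, against 0.667 and 0.602 at the middle and 8.11 and 10.4 at the last, and the tallest start differed between the animals. Pax6, a paired-box factor of granule cells and their precursors, had 7.67 and 6.06 at the first start, against 1.70 and 1.21 and, 6.61 kb downstream, 13.5 and 7.68. Zbtb20, a zinc finger repressor gene, had 0.439 and 0.968 at the first start, against 1.32 and 0.988 at the middle and 6.85 and 3.60 at the last. The first start was the tallest in both animals in 2 of the 9 genes, against 48.1% of all 181, and the list's median log2 ratio was 0.68 and 0.41, against 1.13 and 0.92 in all 181.

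Regulators of intracellular signalling also differed among themselves. Mcf2l (chr8:12873806-13020905) had 15.0 and 9.58 at the first start, against 3.11 and 1.72, 7.31 and 4.26, 1.34 and 1.24, and 6.44 and 5.65. Srgap2, a Rac-directed GTPase-activating protein of spine development, had 17.8 and 15.9 at the first start, against 1.77 and 1.05 at the middle and 1.08 and 1.20 at the last. Rgs3, a regulator of G protein signalling, had 13.1 and 8.67 at the first start, against 3.39 and 2.53, 1.64 and 1.44, and 4.28 and 2.91. Another coding gene starts within 1000 bp of the first Srgap2 start. The first open start led in all 3 in both animals, and in Rgs3 it is not the first annotated start. Asap1 and Fgd4 differed from these. Asap1, an Arf GTPase-activating protein, had 0.786 and 0.533 at the first start, against 11.2 and 7.82 at the middle and 0.412 and 0.326 at the last. Fgd4, a Cdc42 exchange factor, had 1.35 and 0.918 at the first start, against 7.17 and 8.37 at the middle and 0.423 and 0.504 at the last.

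The cytoskeleton list held the most members, 10 of 28, or 35.7% against 10.9% of all genes with 3 or more start clusters. Dst (chr1:33908225-34308661), a spectraplakin that links actin, microtubules and intermediate filaments, had 7.16 and 5.07 at the first start, against 4.03 and 3.94, 2.11 and 1.40, 0.824 and 0.405, and 4.13 and 3.90. Macf1, the related spectraplakin, had a low first start with 0.894 and 1.22, against 3.24 and 1.81, 2.38 and 3.71, and 2.01 and 1.08. The first start was thus the tallest in Dst, where another coding gene starts within 1000 bp of it, and not in Macf1. Ank2, the membrane adaptor ankyrin-B, had 1.29 and 0.889 at the first start, against 3.14 and 1.95, 3.28 and 3.46, 5.54 and 5.45, and 2.91 and 3.81. Ablim1, an actin-binding LIM protein, had 4.40 and 2.89 at the first start, against 7.77 and 5.45, 3.92 and 3.70, 2.00 and 1.61, and 1.92 and 2.27. Map2, the dendritic microtubule protein, had 11.4 and 6.85 at the first start, against 2.76 and 2.67 at the middle and 0.537 and 0.612 at the last. In Ank2 the first start was the lowest of 5 in both animals, and in Map2 it was the tallest. Epb41, a protein 4.1 gene of the membrane skeleton, had the tallest single start among the genes named here, 39.9 and 24.4 at the first, but another protein-coding gene starts within 1000 bp of it, so that peak cannot be assigned to Epb41 alone.

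The RNA-binding protein list gave 5 of 14, or 35.7% against the 10.9% above, and in 1 of the 5 the first start led in both animals, against 48.1% of all 181 genes. The list's median log2 ratio was -0.24 and -0.61, against 1.13 and 0.92 in all 181. That gene was Rbfox2, a splicing factor, with 14.0 and 9.52 at the first start, against 4.87 and 7.10, 3.48 and 3.06, and 1.28 and 0.543. Rbfox3, which encodes the neuronal nuclear antigen NeuN, had 6.15 and 4.40 at the first start, against 5.65 and 3.28 at the middle and 9.40 and 4.87 at the last, 404 kb away. Elavl4, the relative of Elavl2, had 4.51 and 2.27 at the first start, against 2.95 and 2.88 at the middle and 3.09 and 4.18 at the last, so its tallest start differed between the animals. The growth factor list gave 4 of 12, or 33.3% against the same 10.9%. Fgf12, whose protein stays in the cell and binds sodium channels, had 14.6 and 8.08 at the first start, against 0.466 and 0.385 at the middle and 2.80 and 1.75 at the last. Nrg1, the ErbB ligand neuregulin, had 1.46 and 1.13 at the first start, against 1.93 and 1.19 at a start 875 kb away and 0.596 and 0.306 at the last. Fgf1 had 2.91 and 2.87 at the first start, against 3.69 and 2.18 at the middle and 1.00 and 0.948 at the last. The Fgf12 first start was tallest in both animals, while Nrg1 and Fgf1 had similar first and middle starts.

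First and downstream starts differed in base composition, which the choice of genes did not use. The ratio of observed to expected CpG over the 300 bases from 250 before to 50 after the middle start had a median of 0.706 at first open starts, against 0.379 at downstream open starts. Over all open starts of protein-coding genes it was 0.743. Within genes the first start exceeded the mean of the downstream ones by a median of 0.24, and it was the higher in 131 of 181 genes. The genes with exactly 2 open starts had a like difference, with medians of 0.745 at the first and 0.406 at the last start. Their median difference within genes was 0.275. When all 30948 start clusters were divided into 5 classes of equal size by this ratio, 34.8% of first starts fell in the top class, against 12.5% of downstream starts, and 8.29% of first starts fell in the lowest 2 classes, against 34.5% of downstream starts. The tallest start was also the one with the highest CpG ratio of its gene in 101 genes in replicate 1 and 99 in replicate 2.

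Heights were mostly greater in the higher CpG classes, and first starts were taller than downstream starts within each of the upper 3 classes. In the top class first starts had medians of 9.51 and 6.05 (n = 63), against 4.95 and 3.33 for downstream starts (n = 52). In the fourth class the medians were 7.82 and 5.46 (n = 61), against 4.16 and 3.57 (n = 75), and in the third 5.09 and 3.41 (n = 42), against 1.92 and 1.61 (n = 145). The lowest classes held too few first starts to compare, 4 and 11. In the 79 genes whose first start was in a higher class than every downstream start, the median log2 ratio was 1.82 and 1.76 and the first start was tallest in 56 and 53 genes. In the 58 genes with a downstream start in a higher class than the first, the ratio was 0.27 and 0.23 and the first start was tallest in 21 and 20. Open starts of all coding genes in the top class had medians of 13.4 and 8.84, above both kinds of start in these 181 genes.

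**Figure D4:**
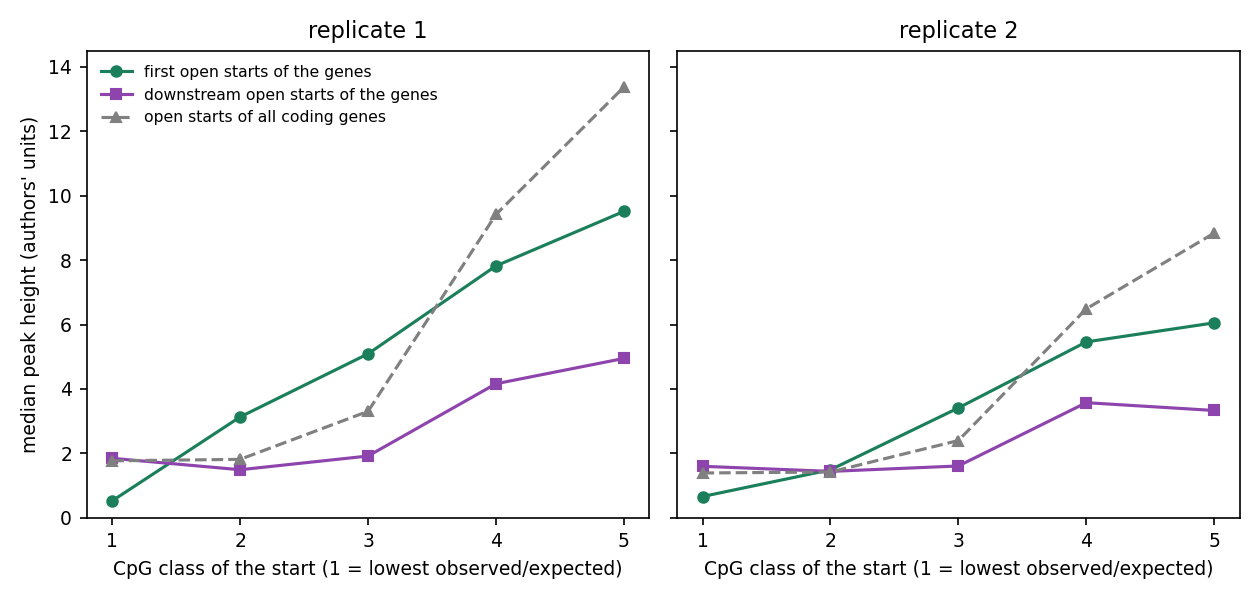
Median peak height (authors' units) by CpG class of the start, from the lowest (1) to the highest (5) observed/expected ratio, for first and downstream open starts of the 181 genes and for the open starts of all coding genes, with 1 panel per animal. First starts lie above downstream starts in classes 3 to 5, and the point for first starts in class 1 rests on 4 starts.

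Protein-coding consequences also followed from the annotation. For 340 downstream open starts a start codon was annotated both there and at the first open start, and 230 of them, or 67.6%, used a start codon other than any of the first start's. In genes with exactly 2 open starts this held for 448 of 873, or 51.3%. Every open start had its own start codon in 48 genes, and in 27 all open starts shared 1. An annotated start codon was present at every open start in 119 genes. Downstream starts with another start codon lay a median of 89.4 kb from the first, against 27.2 kb for those that shared it. Their heights were 2.93 and 2.29 at the median, against 2.40 and 1.97 for those that shared it. Downstream starts over 200 kb from the first had median heights of 1.45 and 1.30, against 3.54 and 2.42 for those 2 to 10 kb away. Relative to the first start of the same gene there was hardly any such difference, with a median log2 ratio of downstream to first height of -0.93 and -0.92 over 200 kb away, against -1.07 and -0.92 at 2 to 10 kb.

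Footprints, short stretches within a peak that are cut less than their surroundings, were read as positions only, since the deposited list gives no depth for them. A footprint lay in a peak within 1000 bp at 98.9% of first open starts in replicate 1 and 95.6% in replicate 2, against 97.6% and 93.5% of downstream open starts. The means were 97.2% ± 2.3 and 95.5% ± 2.9 (SD, n = 2 each), and the share was higher at first starts in each animal, by less than the animals differed from each other. Over all open starts the shares were 98.9% and 95.4%, a mean of 97.2%, which is close to the first starts and above the downstream ones. By the stricter count of a footprint in both animals it was 94.9% over all open starts. The median number of footprints, counted over all peaks within 1000 bp, was 7 and 6 at first starts, against 5 and 4 at downstream starts. Over all open starts it was 6 and 5. In the genes with exactly 2 open starts it was 6 and 5 at the first and 4 and 4 at the last.

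Motif matches were counted on both strands in the 300 bases centred on the highest peak. CAGATG, the E-box bound by NeuroD factors, was in 11.6% and 10.5% of windows at first starts, against 25.3% and 23.9% at downstream starts. Over all open starts it was in 11.6% and 11.7%, and over all peaks in 27.7% and 28.6%. The AP-1 site TGACTCA was in 1.66% and 2.21% of first windows, against 6.99% in both animals downstream, with 2.82% and 2.90% over all open starts and 5.96% and 6.27% over all peaks. In both motifs the downstream starts stood nearer to peaks in general and the first starts nearer to open starts in general. The SP/KLF box GGGGCGGGG ran the other way, with 19.9% and 18.8% of first windows, against 10.6% and 9.64% of downstream windows, 22.1% and 21.7% over all open starts and 4.91% and 5.04% over all peaks. The ETS site CCGGAAGT was in 2.21% of first windows and in none of the 415 downstream windows in either animal, against 7.76% over all open starts and 1.19% and 1.33% over all peaks. The CRE site TGACGTCA was in 3.31% of first windows, against 1.20% of downstream windows, 3.73% and 3.71% over all open starts and 0.757% and 0.864% over all peaks. TATAAA was in 1.66% and 2.21% of first windows, against 4.10% and 3.86% of downstream windows, 3.82% and 4.06% over all open starts and 9.07% and 10.3% over all peaks. A match is a description of the letters and no evidence of binding, and several of these motifs hold CpG, whose frequency differed between the windows.

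**Figure D5:**
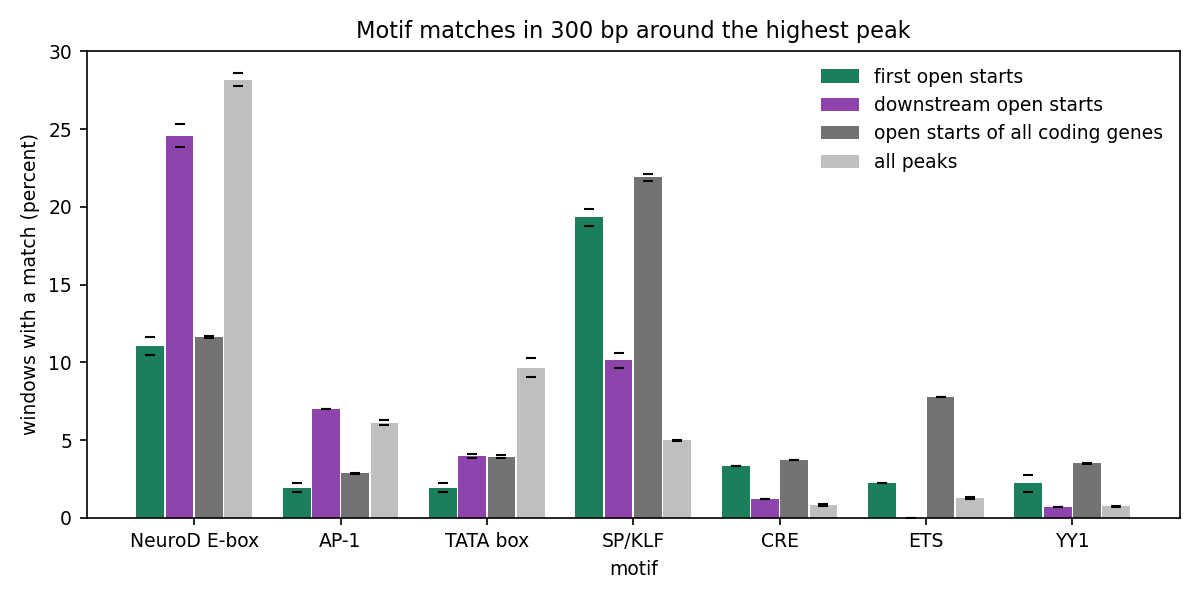
Share of windows of 300 bases around the highest peak that hold a match to a motif, in percent, for first and downstream open starts of the 181 genes, open starts of all coding genes and all peaks. Bars are means of the animals and the short black lines their values; the NeuroD E-box and AP-1 bars are taller for downstream than for first starts, and the SP/KLF bars are shorter.

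Of the remaining motifs, the CTCF core AGGGGGCGC was in 3.87% and 3.31% of first windows, against 1.69% and 1.20% of downstream windows. Over all open starts it was in 3.01% and 2.86%, and over all peaks in 1.62% and 1.64%. The YY1 site AAGATGGCG was in 1.66% and 2.76% of first windows, against 0.723% of downstream windows in both animals. Over all open starts it was in 3.51% and 3.49%, and over all peaks in 0.740% and 0.723%. The NRF1 site was in 1.10% of first and 0.482% of downstream windows in both animals. Over all open starts it was in 2.23% and 2.15%, and over all peaks in 0.320% and 0.364%. The NFI and MEF2 sites were in none of the first windows, against 0.241% and 0.482% of downstream windows in both animals. Over all peaks the NFI site was in 0.162% and 0.165% and the MEF2 site in 0.110% and 0.159%. Over all open starts NFI was in 0.039% and 0.052% and MEF2 in 0.118% and 0.131%. With 181 first and 415 downstream windows, the YY1, NRF1, NFI and MEF2 shares there rest on a few windows each at most.

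How closely a peak sat on the start differed as well. The annotated start lay inside a peak at 76.2% and 73.5% of first open starts, against 57.3% of downstream open starts in both animals. Over all open starts it did so at 77.4% and 77.0%. In the genes with exactly 2 open starts the shares were 73.3% and 73.7% of first and 56.2% and 54.8% of last starts. When a peak had to cover a start itself, a setting chosen after the data were seen, 46 genes still had 3 or more open starts. Among those 46, the first start was tallest in 38.0% as a mean of the animals and the median log2 ratio was 0.32, against 52.5% and 1.03 in the 181. A peak beside a start may therefore belong to another element, and this was not tested. The same peak can also lie within 1000 bp of neighbouring starts. In Tpra1 the downstream open starts had equal heights within each animal. Only transcripts annotated as incomplete at the 5′ end stood at 2 first and 72 downstream starts, or 17.3% of the downstream ones. Another protein-coding gene started within 1000 bp of 19 first starts and 7 downstream starts, and 156 of the 181 genes had no such start.

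The threshold of the rule was the presence of a peak in both animals, and 96 genes with 2 open starts had a further start with a peak in 1 animal alone. Just inside were Bmpr1b, a BMP receptor gene, with 0.775 and 0.652 at the first start, against 0.314 and 0.237 and, at the last start, 0.396 and 0.247. Sox6, a transcription factor gene, had 0.444 and 0.257 at its first start, against 1.18 and 0.662 and, at the last start, 1.36 and 1.33, and Dlc1 had 0.304 and 0.267, against 0.602 and 0.356 and, at the last start, 6.25 and 4.42. Just outside were Tcf20 and Phactr3, each with a further start of 1.88 and 1.26 in replicate 1 alone, and Ccdc136 with 1.75 in replicate 2 alone. A list of 35 genes known for alternative promoters was drawn up with earlier results of these data known. Of these, 28 had 3 or more start clusters, and 13 of those were members, against 10.9% of all 1664 genes with 3 or more start clusters. Among the listed genes that were not members, Bdnf, the neurotrophin gene, had 2 of 3 start clusters open, Ank3 2 of 9, Tiam1 2 of 5 and Kalrn none of 6.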

How the data were processed

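DNase-seq libraries of cerebellum from 2 mice were deposited with a peak list and a footprint list each, on mm10, per the labels. Which aligner was used, and which programs called peaks and footprints, is not given in the sources used here. Mapping of hybrid reads to mm10 was not tested. Peaks were called per animal. The peak height is a signal the authors deposited; its scaling is not stated and the depth is unknown, so no count test or interval was used. Every footprint carries the same deposited entry of a p-value type, 0.01, and was used by position. The larger of 2 deposited peak lists was the main one.

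Protein-coding transcript starts of GENCODE M21 were merged within 2000 bp, and the highest peak within 1000 bp gave a start its height. CpG ratios and sequences came from GRCm38.p6. Steps were run in Python 3.11.15 with NumPy 2.4.6 and SciPy 1.17.1 and tested on simulated peak lists. There was 1 group, so no test over samples was made. Genes, lists, motifs and alternatives were chosen with earlier results of these data known. Named genes were those with the most open starts, those with the highest and lowest ratio of the first to the tallest downstream start, known alternative promoter genes, up to 3 genes of each list, and the genes nearest to the threshold; other genes named were chosen after their values were seen. Alternatives changed the merging distance, the window, the transcripts, the peak list and the animals. A few genes and a gene list that these rules would name are not reported here.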

Additional observations from a re-analysis of the deposited data

How the results depend on the processing

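The number of genes was 494 with starts merged within 500 bp, 115 with peaks at or above the median height, 46 where a peak had to cover a start, and 194 to 279 with 1 animal left out. The first start was tallest in 62.0%, 50%, 47.3% and 38.0% of genes with starts merged within 500 bp, peaks within 500 bp, 5′-incomplete transcripts left out and peaks covering a start. The median log2 ratio under these settings was 0.69, 0.82, 0.71 and 0.32, with peaks at or above the median height 0.85, against the highest downstream start 0.11, and with 1 animal left out 0.94 to 1.30. The CpG difference was 0.278 around the peak, 0.168 without 5′-incomplete transcripts and 0.263 to 0.289 with 1 animal left out. The footprint share of first starts was 94.8% to 96.1% and that of downstream starts 92.4% to 93.7% with 1 animal left out. With the smaller peak list the cAMP and calcium, RNA-binding and growth factor lists held 3, 3 and 1 members. In windows of 100 bases the shares in first and downstream windows were 0.552% and 0.120% for NRF1, 5.25% and 11.6% for the NeuroD E-box, 1.93% and 1.08% for the CTCF core, 0.552% and 4.58% for AP-1, 2.21% and 0.843% for CRE, 8.84% and 3.86% for SP/KLF, 0.829% and 0.361% for YY1, and 0% and 1.33% for the TATA box; ETS was at 1.10% of first and MEF2 at 0.241% of downstream windows. The share of genes with the first start tallest thus moved from above 50% to below it in the last 2 of its settings. As each gene had 3 or more open starts, 50% is not the share that an equal split among starts would give. The log2 ratio and the CpG difference stayed above 0 in all of their settings. The cause of these shifts was not tested. No paired analysis was possible because with 1 group the replicate numbers pair no samples; first and downstream starts were set against each other within each gene and animal.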

Other observations

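The following 3 members were picked after their values were seen, with no gene list behind them. Dnmt3a, a DNA methyltransferase, had 8.80 and 5.11 at its first open start, against 1.06 and 1.98 at the middle and 0.981 and 0.642 at the last, and both downstream starts belonged only to transcripts incomplete at the 5′ end. Hdac5, a histone deacetylase, had 18.0 and 15.5 at the first, against 13.9 and 9.08 at the middle and 1.56 and 1.05 at the last. Kdm2b, a histone demethylase that binds CpG islands, had 4.17 and 2.98 at the first, against 3.39 and 2.29, 9.48 and 6.25, and 1.72 and 1.04 at the last. The first start led in Dnmt3a and Hdac5 and the third in Kdm2b, in both animals.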
